A study of Mus musculus with 16 samples.

Results

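The 10 mitotic transcripts described here encode cyclin A (Ccna2), its kinase (Cdk1), the Aurora and Polo kinases (Aurka, Aurkb, Plk1), survivin (Birc5), topoisomerase II alpha (Top2a), the Ki-67 antigen (Mki67) and the ubiquitination factors Cdc20 and Ube2c. They were chosen by function, as genes whose products act in G2 and mitosis, and every interval of these genes with a mean of at least 1 CPM (reads scaled to library size, as the authors' mean over all libraries) was taken. The list was proposed with earlier results of these libraries known, so its members are no independent draw. The 10 genes, of 21177 in the deposited table, held 30 intervals, of which 25 passed the CPM limit and 23 of those had different coordinates. Over all genes, 23563 different intervals passed it. Just below the limit were intervals of Plk1 (0.694 and 0.277 CPM) and Cdc20 (0.527 CPM). Just above it were an interval of Cdc20 (1.15 CPM) and intervals of Ccna2 (1.38 and 1.48 CPM).

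The cells were mouse leukemia cells of the strain C57BL/6, with bone marrow given as the tissue, of the genotype WT or YBX1-/-. Both genotypes were treated alike with the nucleoside 4-thiouridine (4sU) at 50 µM for 24 h, washed, and chased with 10 mM uridine, and polyA RNA was collected at 0, 0.5, 1, 3, 6, 12, 18 and 24 h of the chase, with 1 library per genotype and time, 16 in all. The labels give neither the oncogene that produced the leukemia, nor the ages of the animals, nor the way Ybx1 was deleted, and they do not say whether the libraries came from separate cultures or animals. The protein YBX1 binds RNA. The study's question was how it bears on mRNA stability in leukemia cells, in connection with the RNA modification m6A. In SLAM-seq, 4sU built into RNA is read as a T-to-C change, so the T-to-C rate of a transcript tells how much of it was made during labelling. The rate falls in the chase as labelled molecules decay or are diluted by new ones, and these cannot be told apart.

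Mitotic transcripts are made mainly in the G2 phase of dividing cells, and many of their genes are held silent in G1 through a promoter element named CHR, read together with CCAAT boxes bound by NF-Y. Their proteins drive entry into mitosis or condense and separate chromosomes, and some of them are then destroyed by the anaphase-promoting complex. In bone marrow and in leukemia they mark the cycling cells. In bulk RNA a change in the share of cycling cells and a change in each cell cannot be told apart.

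The promoters of the members are shown for the letters of the CHR element and the CCAAT box. The genes were chosen by function and not by these letters. Both elements are known from genes of this function, so their frequency here is a description and no independent result. RefSeq promoters (GRCm38.p6, 250 bases before to 50 bases after the start of the transcript) were matched for 8 of the 10 genes. The letters TTTGAA, the core of a CHR element, and CCAAT were searched on both strands, and matches of both can share 1 end base. Both were present in 7 of the 8 promoters (87.5%), against 6.95% of the 32851 RefSeq promoters searched, and the promoter of Birc5 held neither. TTTGAA alone was in 17.9% and CCAAT alone in 37.4% of these promoters. Of the promoters of the other G2/M genes listed below, 35.7% held both, and of those of S-phase replication genes, 6.67%. A match is a description of letters and not of a bound site. The promoters of Cdc20 (chr4:118437294-118437593, minus strand), Cdk1 (chr10:69352863-69353162, minus strand) and Ube2c (chr2:164769679-164769978, plus strand) are given 5′ to 3′, with TTTGAA and CCAAT, on either strand, in capitals.
Cdc20 promoter: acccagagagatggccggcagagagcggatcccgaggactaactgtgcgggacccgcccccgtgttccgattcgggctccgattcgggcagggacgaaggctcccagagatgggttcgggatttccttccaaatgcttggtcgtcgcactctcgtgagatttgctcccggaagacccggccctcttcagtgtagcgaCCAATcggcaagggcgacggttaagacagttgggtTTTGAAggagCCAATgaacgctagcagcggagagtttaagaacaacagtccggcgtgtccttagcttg
Cdk1 promoter: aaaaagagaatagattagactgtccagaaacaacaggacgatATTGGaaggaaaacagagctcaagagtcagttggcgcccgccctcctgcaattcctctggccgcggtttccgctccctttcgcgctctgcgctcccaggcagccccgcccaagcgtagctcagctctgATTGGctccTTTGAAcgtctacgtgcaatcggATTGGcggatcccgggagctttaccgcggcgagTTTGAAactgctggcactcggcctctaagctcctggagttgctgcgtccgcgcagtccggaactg
Ube2c promoter: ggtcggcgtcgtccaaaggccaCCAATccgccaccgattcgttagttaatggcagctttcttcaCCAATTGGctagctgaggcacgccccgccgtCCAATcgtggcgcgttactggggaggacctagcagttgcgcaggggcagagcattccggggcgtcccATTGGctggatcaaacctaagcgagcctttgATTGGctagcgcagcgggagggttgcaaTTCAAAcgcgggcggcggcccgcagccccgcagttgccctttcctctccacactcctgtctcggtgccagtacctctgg
In Cdc20 the first base of the TTTGAA match lay 18 bases before the start, between CCAAT matches at 53 and 8 bases before it. The Cdk1 promoter held 2 TTTGAA and 3 CCAAT matches, and the Ube2c promoter held 1 TTTGAA and 6 CCAAT matches. In Ube2c the stretch CCAATTGG was counted as 1 CCAAT match on each strand, and these overlap.

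The intervals used for the members lay mostly in 3′ UTRs, which are shown by short windows around GGACT, the letters at the core of the m6A consensus. GGACT was searched on the transcript's strand in the longest annotated 3′ UTR of each gene (GENCODE annotation of GRCm38). The 10 members held 13 matches in 11625 bases, or 1.12 per kb, with at least 1 match in 6 of 10 genes. All genes held 0.928 per kb, with a match in 57.3% of genes. These counts cover whole annotated UTRs, also stretches with few reads. In Cdk1 a 174-base interval had 10.9 CPM where the 3352-base interval around it had 11.4 CPM. In Birc5 a 424-base interval had 39.0 CPM where the 2936-base interval around it had 39.7 CPM. The AU-rich letters ATTTA were found 1.63 times per kb in the members and 1.93 times per kb in all genes, with at least 1 match in 80% of the members and 64.9% of all genes. Matches from Plk1, Top2a, Cdk1 and Ccna2 are given with GGACT in capitals, each named with its position counted from 1 at the first base of the UTR. Neither Aurka, Aurkb, Mki67 nor Cdc20 had a match, and whether any of these sites carries m6A was not measured in these libraries.
Plk1 UTR position 14: tctctctccttcGGACTggtgccccttca
Plk1 UTR position 237: tctattaaattgGGACTgctctttcctta
Top2a UTR position 298: tgggaggaggcaGGACTgctcacggttac
Cdk1 UTR position 109: aaactgtcatctGGACTtttcttaatttc
Ccna2 UTR position 1268: ttcttgctaccaGGACTgcccatgaaaaa

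Some facts of the whole series bear on the values below. The deposited table holds rates and no counts per library, so the depth behind each rate is unknown, no confidence interval was computed, and a rate listed at 0 can mean no converted read or no read. Tests were run on the 7411 genes with 12 or more libraries above 0, each represented by its interval with the highest mean CPM. The median rate over these genes fell from 42.9% at 0 h to 0.847% at 24 h in WT, and from 33.3% to 0.768% in YBX1-/-. The rate of Ybx1 itself (32.5 CPM, interval chr4:119277981-119278367) went from 55.2% to 5.08% in WT and from 72.0% to 3.08% in YBX1-/-. A rate is a share within a transcript and gives no level, and the deleted part of Ybx1 is not named in the labels, so this does not check the genotype. All 16 myeloid and leukemia markers had a mean CPM of at least 1 (1.94 to 478, summed 1616 CPM), against 1 of 8 T and NK cell markers (summed 12.6 CPM, mostly Nkg7), 2 of 7 erythroid markers (3.65 CPM), 4 of 5 megakaryocyte markers (72.3 CPM) and 1 of 6 stromal and endothelial markers (4.91 CPM). CPM was deposited only as a mean over libraries, so the markers were not compared between genotypes.

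Most of the mitotic transcripts were labelled above the median gene at the start and kept less of that label than the median gene at 6 h. Over 0, 0.5 and 1 h the mean rate had a median of 54.6% over the 9 tested members in WT and 41.2% in YBX1-/-, against 45.4% and 33.7% over all 7411 tested genes. In WT 7 of 9 members and in YBX1-/- 8 of 9 lay above the median of all genes. At 6 h the members had kept a median of 6.90% of that early rate in WT and 8.71% in YBX1-/-, where all tested genes had kept 22.8% and 14.7%. At that time 8 of 9 members in WT and 7 of 9 in YBX1-/- lay below the median of all genes. At 3 h the members' medians were 25.7% and 41.6%, against 45.0% and 54.7% for all genes, with 6 of 9 members below the median of all genes in each genotype. At 12 h they were 5.28% and 3.04%, against 4.88% and 5.38%, with 4 of 9 members in WT and 6 of 9 in YBX1-/- below the median of all genes. The 80 other tested G2/M genes listed below had kept 21.0% and 15.2% at 6 h, with 43 and 39 below the median of all genes. Their early rates were above that of all genes in 35 of 80 in WT and 48 in YBX1-/-. The 19 tested G1 genes had kept 18.9% and 5.50% at 6 h, with 10 and 15 below. So the low share at 6 h was not common to G2/M genes, and in YBX1-/- it was not particular to the members. These are descriptions of the lists beside all genes, with no test. The tested members passed the filter with rates above 0 in both genotypes, since 12 libraries cannot come from 1 genotype. Cdc20 did not pass it.

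**Figure D1:**
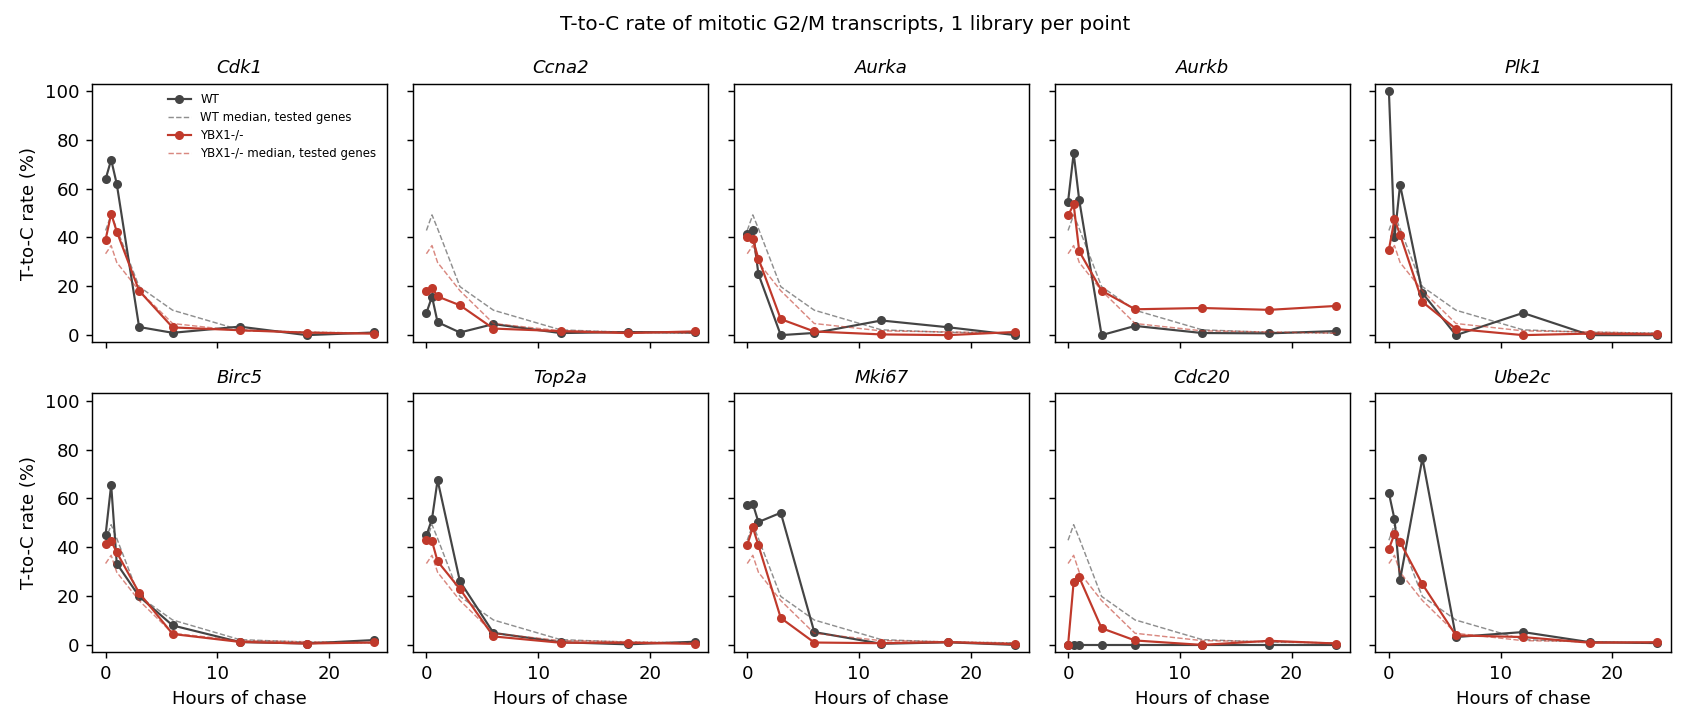
T-to-C rate (y axis, percent of 100) of each of the 10 mitotic transcripts over hours of chase (x axis), with 1 library per point, WT in grey and YBX1-/- in red, and dashed lines for the median of the 7411 tested genes. Most curves fall to a few percent by 6 h; Aurkb in YBX1-/- stays between 10.4% and 12.0% from 6 h on, and Cdc20 is listed at 0 in all 8 WT libraries.

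Cdk1 is the kinase that starts mitosis. Its 3′ UTR interval (chr10:69335146-69338497, minus strand, 11.4 CPM) had WT rates of 63.8%, 71.8%, 61.9%, 3.33%, 0.952%, 3.48%, 0 and 1.09% in the order of the 8 times. In YBX1-/- the rates were 39.1%, 49.7%, 42.4%, 18.2%, 3.16%, 2.01%, 1.00% and 0.592%. YBX1-/- was lower than WT in the first hour and higher at 3, 6 and 18 h, so the genotypes crossed. Relative to the library median the level was 0.87 higher in YBX1-/- on the log2(rate + 0.1) scale (SE 0.55, adjusted p = 0.779 by limma), which does not pass the threshold of 0.05.

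Ccna2 encodes cyclin A2, which binds Cdk1 and Cdk2 from S phase into mitosis. Its main interval (chr3:36564865-36566233, minus strand, 3′ UTR, 32.8 CPM) had low WT rates of 9.09%, 15.7%, 5.31%, 1.08%, 4.53%, 0.846%, 1.27% and 1.10% from 0 to 24 h. In YBX1-/- they were 18.1%, 19.4%, 15.8%, 12.2%, 2.69%, 1.63%, 0.818% and 1.54%. YBX1-/- was above WT at 6 of 8 times, and the level difference was 1.13 (SE 0.53, limma adjusted p = 0.779). Of its 1369 bases, 510 are shared with exons of Exosc9, an exosome subunit gene on the opposite strand, and the sources used here do not say whether strand was used in counting.

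An interval of Ccna2 clear of Exosc9 exons had higher early rates than the long one. A 305-base interval at the end of the coding sequence and the start of the UTR, which overlaps no exon of another gene (chr3:36565978-36566282, 3.98 CPM), had WT rates of 70.8%, 88.2%, 25%, 0, 16.7%, 0, 0.769% and 4.88%. In YBX1-/- it had 55.6%, 26.7%, 32.0%, 27.9%, 3.19%, 2.86%, 0.943% and 2.99%. Early rates there were higher in WT than in YBX1-/- at 0 and 0.5 h, opposite to the long interval. With this interval in place of the long one the level difference was 1.41 (limma adjusted p = 0.792), an alternative added after the values were seen. The Exosc9 interval with the highest mean CPM (chr3:36565301-36565645, plus strand, 17.0 CPM), which lies inside the long Ccna2 interval, had 23.0%, 55.1%, 42.2%, 12.3%, 9.06%, 2.47%, 0.758% and 2.99% in WT. In YBX1-/- it had 18.4%, 22.3%, 16.3%, 12.4%, 3.5%, 2.59%, 0 and 0.452%. What part reads of Exosc9 have in the long interval was not tested. The coding intervals of Ccna2 were listed at 0 in WT in 5 to 7 of 8 libraries and in YBX1-/- in 1 to 3.

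**Figure D2:**
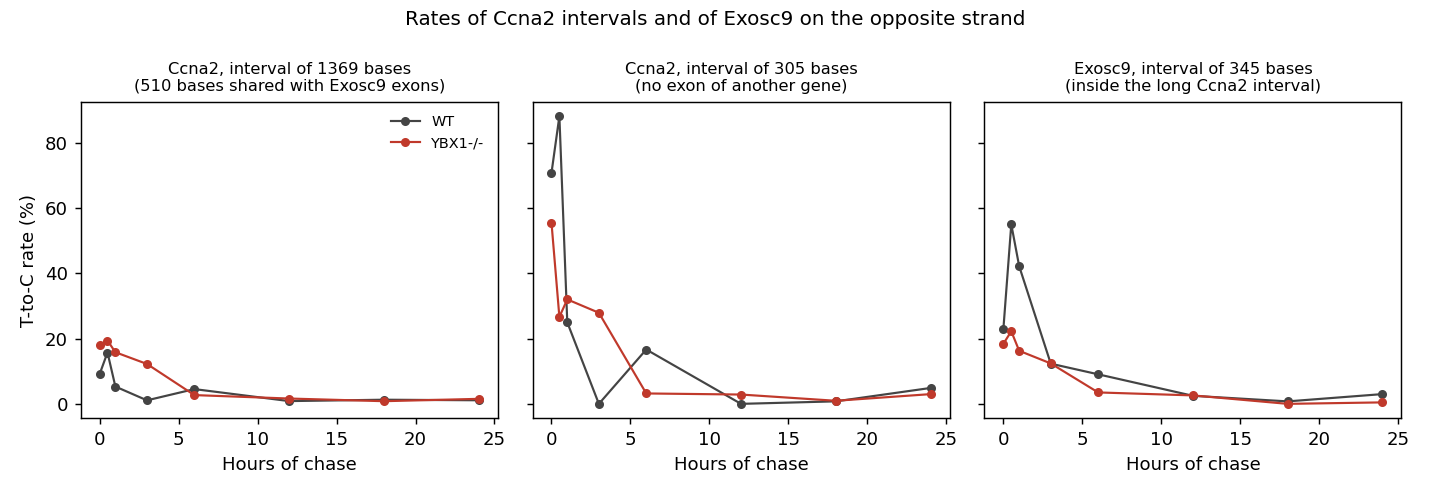
T-to-C rate (y axis, percent) over hours of chase (x axis) for the long Ccna2 interval, a 305-base interval that overlaps no exon of another gene, and the Exosc9 interval that lies inside the long one on the opposite strand, with 1 library per point, WT in grey and YBX1-/- in red. At 0 h the long interval is at 9.09% in WT where the 305-base interval is at 70.8%.

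Aurora kinase A, encoded by Aurka, acts at centrosomes and spindle poles. Its 3′ UTR interval (chr2:172356190-172356795, minus strand, 15.6 CPM) had WT rates of 41.6%, 42.9%, 25%, 0, 0.893%, 6.00%, 3.21% and 0. In YBX1-/- the rates were 40%, 39.2%, 31.3%, 6.56%, 1.5%, 0.298%, 0 and 1.30%. The genotypes were close at 0 and 0.5 h, and the zeros at 3 and 24 h in WT and at 18 h in YBX1-/- set the largest differences. The level difference was 0.56 with an SE of 1.18 (limma adjusted p = 0.932).

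Aurora kinase B is the kinase of the chromosomal passenger complex, which corrects chromosome attachment and acts in cytokinesis. The Aurkb 3′ UTR interval (chr11:69051062-69051664, plus strand, 15.4 CPM) had WT rates of 54.7%, 74.5%, 55.2%, 0, 3.77%, 0.858%, 0.728% and 1.67%. The YBX1-/- rates were 49.0%, 53.5%, 34.3%, 18.2%, 10.6%, 11.1%, 10.4% and 12.0%. Below WT in the first hour, the YBX1-/- rate was above it at all 5 later times and lay between 10.4% and 12.0% from 6 h on. The level difference of 2.55 (SE 0.80) was the largest among the members and had an unadjusted p of 0.0101, with a limma adjusted p of 0.779. Over 12 to 24 h alone the difference was 3.40 (SE 0.41, limma adjusted p = 0.633). At 12, 18 and 24 h in YBX1-/-, 4.25%, 2.77% and 0.945% of the tested genes had a rate above that of Aurkb. Aurkb was the only one of the 7411 genes with a rate under 2% in WT and above 10% in YBX1-/- at all of 12, 18 and 24 h, limits that were set after its values were seen. A rate above 10% at all these times was found in 60 genes in WT (0.810%) and in 45 in YBX1-/- (0.607%).

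Polo-like kinase 1, encoded by Plk1, acts from mitotic entry to cytokinesis. Its 3′ UTR interval (chr7:122169591-122169873, plus strand) had the lowest mean CPM of the tested members, 5.21. Its WT rates were 100%, 40%, 61.5%, 17.2%, 0, 9.09%, 0 and 0. YBX1-/- rates were 35%, 47.5%, 41.1%, 13.6%, 2.53%, 0, 0.633% and 0.350%. The WT values moved up and down between neighbouring times over a wider range than those of YBX1-/-, and the level difference of 0.48 had an SE of 1.11 (limma adjusted p = 0.942).

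Birc5 encodes survivin, a subunit of the chromosomal passenger complex together with Aurkb. Its interval (chr11:117852808-117855743, plus strand, coding sequence and 3′ UTR, 39.7 CPM) had the highest mean CPM of the members. The WT rates were 45.0%, 65.6%, 33.3%, 19.9%, 7.98%, 1.18%, 0.576% and 1.99%. In YBX1-/- they were 41.3%, 42.6%, 37.9%, 21.3%, 4.47%, 1.24%, 0.569% and 1.01%. The genotypes were close at 3, 12 and 18 h, and the late YBX1-/- rates of this passenger subunit were near 1%, unlike those of Aurkb. The level difference was 0.08 (SE 0.22, limma adjusted p = 0.955), the smallest SE among the members.

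Top2a encodes topoisomerase II alpha, which untangles sister DNA before anaphase. Its main 3′ UTR interval (chr11:98992943-98993413, minus strand, 13.1 CPM) had WT rates of 44.8%, 51.6%, 67.5%, 26%, 4.92%, 1.11%, 0.240% and 1.30%. In the YBX1-/- libraries the rates were 42.9%, 42.5%, 34.2%, 22.9%, 3.47%, 0.893%, 0.888% and 0.432%. YBX1-/- was below WT at 7 of 8 times in the rates as deposited, while the level relative to the library median differed by 0.08 (SE 0.30, limma adjusted p = 0.965).

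Mki67 encodes Ki-67, which coats mitotic chromosomes and is used to mark cycling cells. Its 3′ UTR interval (chr7:135689784-135690088, minus strand, 9.16 CPM) had WT rates of 57.1%, 57.8%, 50.3%, 54.1%, 5.26%, 0.469%, 1.05% and 0. In YBX1-/- they were 40.9%, 48.1%, 40.8%, 11%, 0.976%, 0.699%, 1.16% and 0.279%. Here the order at 3 h was the reverse of that of Cdk1 and Aurkb, with WT still near its starting rate. Mki67 was the only tested member with a level difference below 0, at -0.04 (SE 0.46, limma adjusted p = 0.986).

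Ube2c is the ubiquitin-conjugating enzyme that works with the anaphase-promoting complex. Its 3′ UTR interval (chr2:164772563-164772907, plus strand, 19.0 CPM) had WT rates of 62.2%, 51.5%, 26.7%, 76.5%, 3.23%, 5.26%, 1.10% and 0.746%. In YBX1-/- they were 39.3%, 45.4%, 42.1%, 24.8%, 3.91%, 3.23%, 0.888% and 1.13%. The highest WT value was at 3 h, above those of the first hour, and the level difference was 0.10 (SE 0.32, limma adjusted p = 0.959).

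Cdc20 activates the anaphase-promoting complex at anaphase. Its main interval (chr4:118433481-118433598, minus strand, coding sequence, 1.84 CPM) was listed at 0 in all 8 WT libraries. In YBX1-/- the rates were 0, 25.8%, 27.7%, 6.85%, 1.82%, 0, 1.69% and 0.575%. A 37-base coding interval (chr4:118433105-118433141, 1.15 CPM) was listed in WT at 100% at 0.5 and 1 h, at 14.3% at 3 h and at 0 in the other 5 libraries. With rates above 0 in 6 of 16 libraries the main interval was not tested, and no fold is given against a genotype listed at 0.

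**Figure D3:**
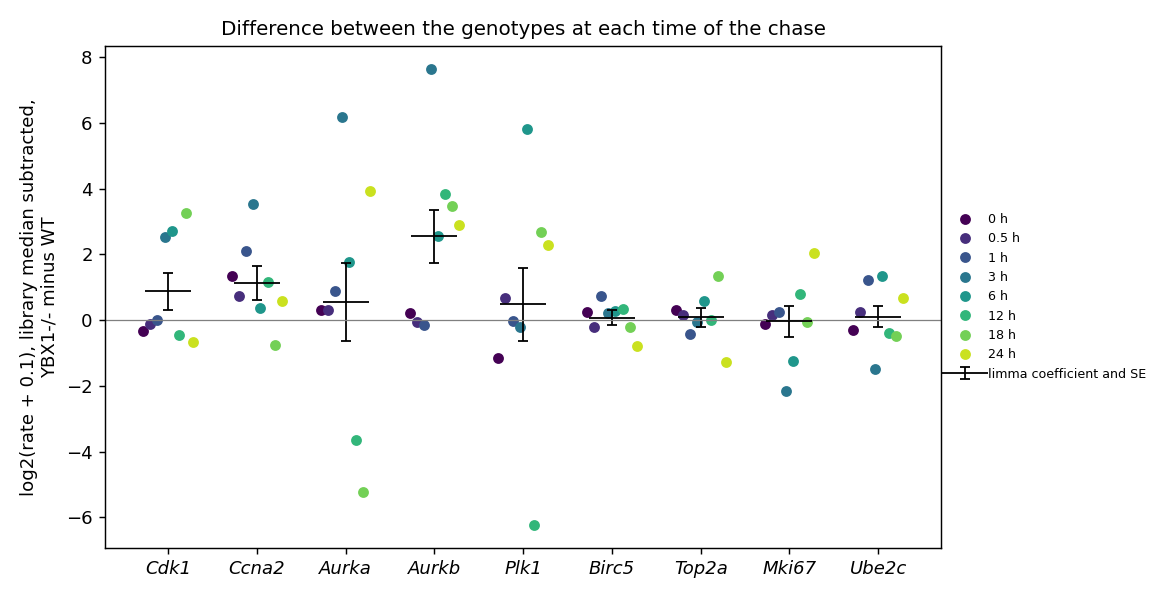
Difference between YBX1-/- and WT in log2(rate + 0.1) after subtraction of the library median (y axis) for the 9 tested members (x axis), 1 point per time of chase, coloured by time, with the limma coefficient and its SE in black. Points of Aurka and Plk1 reach from below -5 to above 5, and 3 h gives the highest point of Aurka, Aurkb and Ccna2.

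None of the members' differences between genotypes passed the test. For the level over all times, limma called 0 of 7411 genes (0%) at an adjusted p under 0.05, and 415 (5.6%) had an unadjusted p under 0.05, among them 1 of the 9 members (Aurkb). The level was above 0 in 8 of 9 members with a median of 0.48, where 50.7% of all tested genes were above 0 with a median of 0.01. The count above 0 depended on the settings. It was 5 of 9 on an arcsine scale and 6 of 9 without the 1 h libraries. Without the subtraction of library medians the median of all genes was -0.34, and 5 of 9 members were above 0 (median 0.13), with Top2a at -0.27, Birc5 at -0.27 and Ube2c at -0.25. The p-values measure the scatter of the genotype difference between time points and not that between animals. For the rate of loss (genotype by hours), limma called 8 genes (0.108%), and 929 had an unadjusted p under 0.05. Among the members 0 of 9 were called and 0 had an unadjusted p under 0.05. Their coefficients ran from -0.087 (Aurka) to 0.090 (Aurkb) log2 units per h, and 5 of 9 were above 0, against 52.4% of all genes.

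Split by time, the members' median difference was highest over 3 to 6 h, with single members on either side of 0 in each window. Over 0 to 1 h the median difference was 0.10 and 7 of 9 members were above 0, with the median of all genes at 0.00. Over 3 to 6 h it was 1.93 with 7 of 9 above 0, against 0.07 for all genes, and over 12 to 24 h it was 0.03 with 5 of 9 above 0, against 0.02. In each of the 3 windows limma called 0% of the 7411 genes and 0 of 9 members. Unadjusted p-values under 0.05 were found for 484 genes and 0 members over 0 to 1 h, 461 genes and 2 members over 3 to 6 h, and 482 genes and 1 member over 12 to 24 h. The 2 members at 3 to 6 h differed in direction, with Aurkb at 5.10 (SE 1.87) and Mki67 at -1.70 (SE 0.70), both without passing the adjusted test (limma adjusted p = 0.786 and 0.791). Without subtraction of the library medians the members' medians were -0.35, 1.33 and -0.05 in the 3 windows, with 2, 5 and 4 of 9 above 0. The window of 3 to 6 h rests on 4 libraries and 1 residual degree of freedom.

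Most members, like nearly all genes, lost label over the chase in both genotypes. The slope of log2(rate + 0.1) over hours fell with a limma adjusted p under 0.05 in 8 of 9 members in WT and 8 of 9 in YBX1-/-, where 94.7% and 92.6% of all tested genes fell. The member that missed the threshold was Aurka in WT (-0.22 per h, SE 0.11, limma adjusted p = 0.0562) and Aurkb in YBX1-/- (-0.08 per h, SE 0.09, limma adjusted p = 0.342). As half-lives of the label, the WT slopes ran from 2.55 h (Plk1) to 8.09 h (Ccna2) and the YBX1-/- slopes from 3.18 h (Plk1) to 11.8 h (Aurkb). A straight line over 24 h is a poor summary of these curves, since most of the label was gone by 6 h. The median slope of the members gave 3.76 h in WT and 3.77 h in YBX1-/-, against 3.72 h and 4.06 h for all genes, so the early loss described above does not show in the slope.

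**Figure D4:**
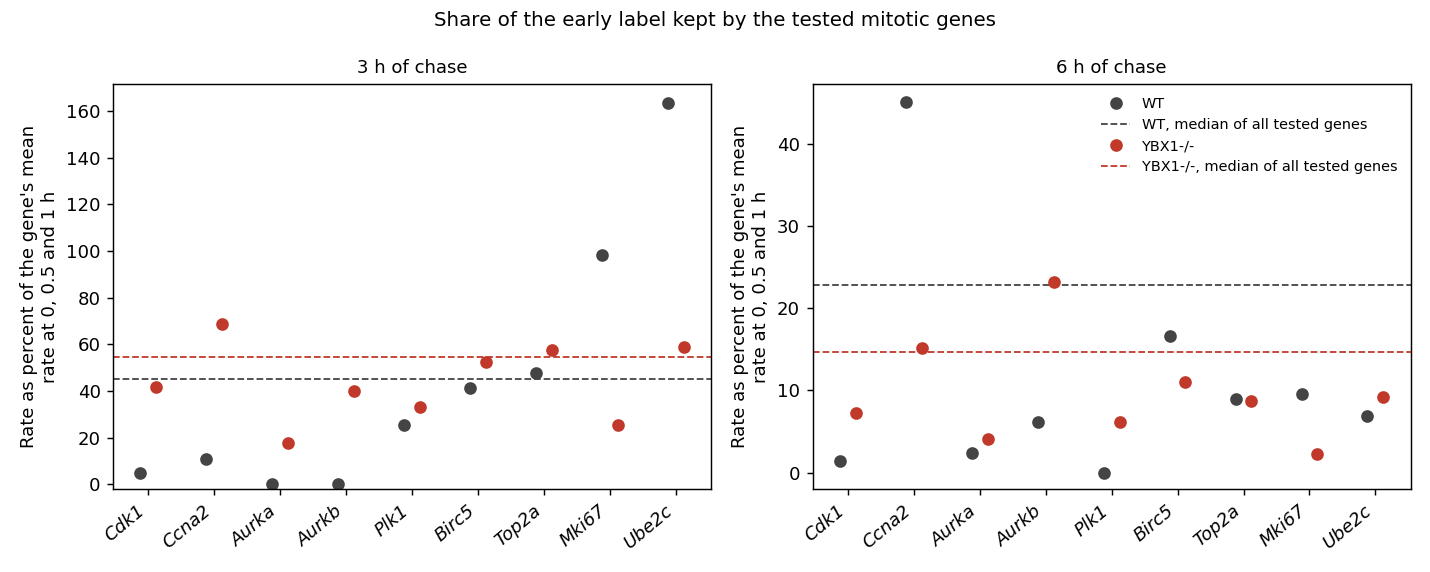
Rate at 3 h (left) and 6 h (right) as percent of the gene's own mean rate at 0, 0.5 and 1 h (y axis) for the 9 tested members (x axis), WT in grey and YBX1-/- in red, with dashed lines for the medians of all 7411 tested genes. At 6 h the members lie below the line of their genotype except Ccna2 in WT (45.1%) and Aurkb (23.2%) and Ccna2 (15.1%) in YBX1-/-.

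The members were more scattered in WT than in YBX1-/- at the early and middle times. Across the 9 tested members the SD of log2(rate + 0.1) in WT was 0.95, 0.68, 1.15, 3.68 and 1.97 at 0, 0.5, 1, 3 and 6 h, and that in YBX1-/- was 0.41, 0.43, 0.44, 0.61 and 0.94. The SD over all tested genes was 0.65, 0.77, 0.86, 1.52 and 1.14 for WT libraries, with 1.71, 0.68, 0.63, 1.02 and 1.68 for YBX1-/- libraries. At 3 h the WT members ranged from 0 (Aurka and Aurkb) to 76.5% (Ube2c), and those of YBX1-/- from 6.56% to 24.8%. The long interval of Ccna2, which overlaps Exosc9, was the lowest member in both genotypes at 0, 0.5 and 1 h.

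Rates listed at 0 were more frequent in WT than in YBX1-/- among the member intervals. Of the 184 values of the 23 member intervals in each genotype, 69 were at 0 in WT (37.5%) and 26 in YBX1-/- (14.1%), where all 23563 intervals had 21.9% and 19.1%. At 3 and 6 h the shares were 45.7% in WT and 4.35% in YBX1-/-, against 11.5% and 10.3% for all intervals. These intervals overlap or share a gene, and 8 of the 23 belong to Ccna2. With 1 interval per gene, 16 of 80 values were at 0 in WT (20%) and 4 of 80 in YBX1-/- (5%), against 16.6% and 16.5% over all genes. Of these, 8 in WT and 2 in YBX1-/- came from Cdc20. The 9 tested members had 8 of 72 in WT (11.1%) and 2 of 72 in YBX1-/- (2.78%). These shares cannot be set against those over all genes, since the tested members alone had passed a filter on zeros. Among all tested genes, under that filter, the share at 0 per library ran from 0.0945% (0 h) to 32.5% (24 h) in WT. In YBX1-/- it ran from 0.0405% (1 h) to 23.7% (18 h). In the count with 1 interval per gene and no filter on zeros, 27.4% and 15.3% of the values of the other G2/M genes were at 0. For S-phase genes the shares were 16.5% and 10.2%, and for G1 genes 16% and 14%. Values listed at 100% were found 4 times in the member intervals in WT and 0 times in YBX1-/-. The number of reads per gene and library is not in the table, and its part in these zeros was not tested.

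Other genes of the G2/M program, taken from lists by function, had a smaller median difference than the members. Of 131 such genes 80 were tested, limma called 0 of them, and 4 had an unadjusted p under 0.05, all higher in YBX1-/-. The median level difference was 0.18, and 56 of 80 were above 0 (70%, with 50.7% over all genes). By role, the median was 0.54 for cyclin B, CDK control and G2/M transcription factors (9 of 12 above 0), 0.28 for the kinetochore and spindle checkpoint (20 of 24) and 0.48 for chromosomal passenger, spindle and cytokinesis genes (13 of 16). It was 0.03 for condensin and chromosome structure (7 of 12) and -0.06 for the anaphase-promoting complex and its regulators (7 of 16). Outside mitosis it was 0.21 for S-phase replication genes (24 of 35) and -0.20 for G1 cyclins, CDKs and E2F genes (6 of 19). These signs hold relative to the library medians: without subtraction the median was -0.17 for the other G2/M genes (33 of 80 above 0), -0.07 for the kinetochore list, -0.32 for the condensin list and -0.14 for the S-phase list, while the cyclin B list (0.19) and the passenger list (0.13) stayed above 0 and 27.0% of all genes were above 0. Limma called 0 genes in each of these 7 lists. At an unadjusted p under 0.05 the kinetochore list had 2 genes, the passenger, condensin and G1 lists 1 each, and the other 3 lists 0.

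Among the genes with the smallest p in their lists, some kinetochore and spindle genes held values in YBX1-/- where WT was listed at 0. Kif22 showed the reverse at 18 h, and so did Smc1a and Rbl2 of other lists at some times. Not all of these genes are named here. Cenpu, a centromere protein, was listed at 0 in WT from 6 to 24 h and had 5.48%, 3.57%, 1.15% and 0.488% in YBX1-/- (level difference 2.42, SE 0.91, limma adjusted p = 0.779). Hjurp, the chaperone that loads the centromeric histone, kept rates of 8.61%, 5.71% and 8.58% at 12, 18 and 24 h in YBX1-/- and 3.47%, 1.71% and 7.69% in WT (0.71, SE 0.25, limma adjusted p = 0.779). Nusap1, a spindle microtubule protein, was listed at 0 in WT at 3 and 6 h, like Aurka and Aurkb at 3 h, and had 27.4% and 6.75% in YBX1-/- (1.96, SE 1.2, limma adjusted p = 0.779). At 18 and 24 h Nusap1 was higher in WT, at 3.33% and 3.57% against 1.76% and 0.343%. Ckap2l, the passenger list's gene with an unadjusted p under 0.05, was listed at 0 in WT from 12 to 24 h. In YBX1-/- Ckap2l had 0.787%, 0.524% and 0.656% there (1.54, SE 0.56, limma adjusted p = 0.779). Cdca5, the cohesin protector sororin, was above WT at all 8 times relative to the library median, with a difference of 1.74 (SE 0.75, limma adjusted p = 0.779). Ccnb2, a cyclin B, had 47.3%, 40% and 31.0% in the first hour in YBX1-/- and 20.0%, 31.3% and 23.1% in WT (0.61, SE 0.39, limma adjusted p = 0.779). At 3 and 12 h Ccnb2 was lower in YBX1-/-, at 25.4% and 0.889% against 39.5% and 3.28%. Cdca3, with the smallest p of the cyclin B list, differed by 1.13 (SE 0.54, limma adjusted p = 0.779). In the opposite direction Kif22, a spindle kinesin, had 45.5% and 80% at 18 and 24 h in WT and 0 and 2.38% in YBX1-/- (-1.52, SE 1.09, limma adjusted p = 0.784). Its mean was only 1.00 CPM, and its WT rate, 60% at 0 h, had a slope of 0.00016 per h. Cdc23, a subunit of the anaphase-promoting complex, was below WT at 7 of 8 times in the rates as deposited (-0.68, SE 0.42, limma adjusted p = 0.779), and the cohesin subunit Rad21 differed by -0.26 (SE 0.22, limma adjusted p = 0.820). Also lower, the cohesin subunit Smc1a had a difference of -2.0 (SE 1.25) and the retinoblastoma family member Rbl2 one of -1.45 (SE 0.62), both with a limma adjusted p of 0.779. Smc1a was listed at 0 in YBX1-/- at 0, 18 and 24 h, where WT had 62.2%, 4.44% and 5.56%. Rbl2 was listed at 0 in YBX1-/- at 12 and 18 h, where WT had 1.51% and 2.34%.

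**Figure D5:**
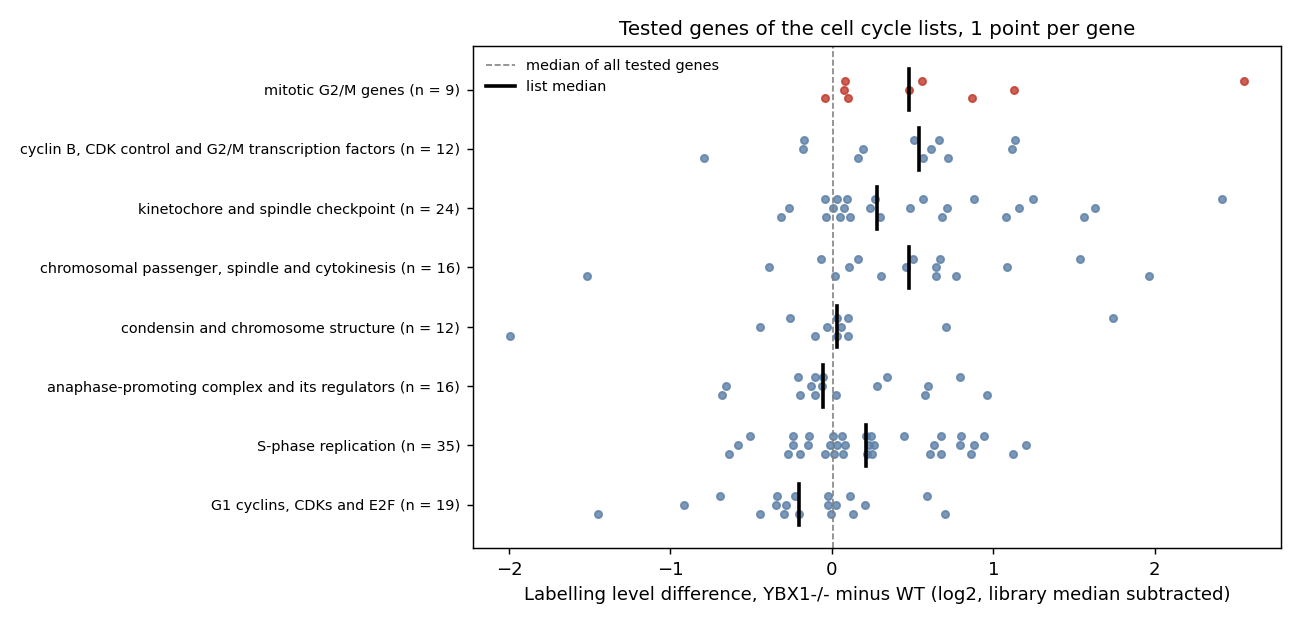
Labelling level difference between YBX1-/- and WT (x axis, log2 scale, library median subtracted) for the tested genes of each cell cycle list (y axis), 1 point per gene, with the list's median as a black bar and the median of all tested genes as a dashed line. The medians run from -0.20 for the G1 list to 0.54 for the cyclin B list, and Aurkb at 2.55 is the highest point of the mitotic members.

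Across the 16 libraries the members were only loosely alike once the library median was taken out. The Pearson correlation of a member with the mean of the other members was 0.72 for Cdk1, 0.50 for Aurka, 0.39 for Plk1 and 0.30 for Aurkb. It lay between -0.17 (Mki67) and 0.19 (Birc5) for the other 5 members. Within a genotype some values were far from these. Aurkb had 0.40 in WT and -0.49 in YBX1-/-, Birc5 0.0078 and 0.72, and Mki67 -0.31 and 0.36. Cdk1 (0.75 and 0.42) and Aurka (0.47 and 0.74) were above 0 in both. The genes outside the cell cycle lists whose pattern was nearest to the members' mean, of 2701 ranked, were Cebpg (r = 0.76), D16Ertd472e (0.76), Prpf4b (0.71), Xbp1 (0.68) and Rap2b (0.67), over the same 16 libraries. Cebpg and Xbp1 encode bZIP transcription factors and Prpf4b a splicing kinase. Xbp1, as one of them, had 40.4%, 55.8%, 43.6%, 6.79%, 5.99%, 1.70%, 0.946% and 0.455% in WT and 36.2%, 35.8%, 28.1%, 10.4%, 1.97%, 0.916%, 0.856% and 0.550% in YBX1-/-. The libraries share the time course and each value of a library shares its depth, so these correlations are a description with no test.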

How the data were processed

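T-to-C rates were deposited by the authors as a fraction from 0 to 1 per interval and library, together with mean CPM and a mean coverage signal on T positions over all libraries, per the file headers. The submitters' processing notes name CASAVA, HISAT2 2.1.0 and the build GRCh38, although the identifiers are mouse; coordinates matched exons of the GENCODE annotation of GRCm38 and are counted from 1. The program that counted conversions and the denominator of the rate are not given in the sources used here. No unlabelled library was used here, so no background was subtracted.

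Rates were put in percent and analysed as log2(rate + 0.1) for genes above 0 in at least 12 of 16 libraries, with the library median over tested genes subtracted except for the slopes of single genotypes. The added 0.1 shrinks differences near 0, while a 0 set against a rate can still give a large one. Two-sided tests used limma 3.58.1 with a trend in R 4.3.3 (tested on simulated data), with Benjamini-Hochberg adjustment over all 7411 genes. Time was a factor in the level and decay tests. The slopes of both genotypes came from 1 model with hours as a number. A gene's scatter was pooled over both genotypes there, so scatter in WT enters the test of the YBX1-/- slope. Groups came from the titles of the samples. Among the marker lists, 1 is not reported here. Members and lists were chosen with earlier results of these data known. Named genes were the members, Ybx1, up to 3 genes per list with the smallest p for the level, and the 5 genes most like the members' mean among genes above 0 in all 16 libraries. Alternatives covered the added value, the scale, the filter, the interval, the centring, the moderation and the libraries.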

Additional observations from a re-analysis of the deposited data

How the results depend on the processing

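None of the tested members was called for the level or the decay rate under any setting tried. The members' calls for loss of label (8 of 9 in each genotype) did move: in WT 6 were called with an added value of 0.01, 9 with 0.5 or 1, and 6 to 9 over the time points left out in turn (7 to 8 in YBX1-/-), and 0 in both genotypes after subtraction of the library median. Over these settings the level difference of Ccna2 ranged from 0.78 to 1.41, and those of Aurkb and Cdk1 also kept their sign in each. The count of genes called for the level (0) was 4 on an arcsine scale, 3 with a rate above 0 in at least 8 libraries, 2 with no filter and 1 with intervals averaged. The count for the decay rate (8) was 1 with an added value of 0.01, 1 with 0.5, 0 with 1, 0 on the arcsine scale, 1 with at least 8 libraries, 0 with no filter, 0 without the trend, 0 without the YBX1-/- library of 0 h, 268 over 0 to 12 h and 0 over 0 to 6 h. Leaving out 1 time point in turn gave 0 to 204 genes, with 204 without 12 h and 91 without 18 h. The loss of label (7018 genes changed in WT, 6860 in YBX1-/-) was called in 2805 and 2805 of the 2836 genes above 0 in all 16 libraries, and in 373 and 193 after subtraction of the library median. Over 3 to 6 h, 30 genes were called without centring.

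Small level differences changed sign. Mki67 was at 0.33 with an added value of 0.01, 0.017 with no filter, 0.26 without 3 h and 0.13 without 6 h. On the arcsine scale Top2a was at -0.0036, Plk1 at -0.077 and Ube2c at -0.023. Without centring Top2a was at -0.27, Birc5 at -0.27 and Ube2c at -0.25. Without 1 h Birc5 was at -0.016 and Ube2c at -0.058. Without 3 h Aurka was at -0.24. Without 6 h Plk1 was at -0.28 and Ube2c at -0.079. Without 18 h Top2a was at -0.10. Over the 8 time points left out in turn, Aurka ranged from -0.24 to 1.39, Plk1 from -0.28 to 1.44, Top2a from -0.10 to 0.27, Birc5 from -0.016 to 0.20, Mki67 from -0.34 to 0.26 and Ube2c from -0.079 to 0.33. The members' median level of 0.48 was 0.93 with an added value of 0.01, 0.10 with 0.5 or 1, 1.06 without 12 h and 0.13 without 6 h. The causes were not tested. The level and decay tests pair the genotypes by time point. No replicate number is in the labels, so no other pairing was fitted. The unknown depth per library limits each single rate.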
